A study of Rattus norvegicus with 36 samples.

Results

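The 9 genes described here bring amino acids into the cell or make them. They are the amino acid transporters Slc7a1, Slc7a3, Slc7a5 and Slc7a11, the heavy chain Slc3a2 that pairs with Slc7a5 and Slc7a11, and the synthesis enzymes Asns, Psat1, Phgdh and Shmt2. The group was set with earlier results of these data known, so counts over it are not independent of those results. Its probe sets were found by name, as those whose gene symbol on the array platform, current or older, was one of the 9. This gave 11 of the 31042 probe sets tested and 9 of the 14217 genes named. Slc7a3 was selected on its measured rise with HPTE in these arrays, so its values are given as a description with no test, and every count of genes that passed a test is over the other 8. Slc7a1 had 3 probe sets and each other gene had 1. For Slc7a1 the brightest was used and the others are described beside it.

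The values are transcript levels in granulosa cells, the follicle cells that surround the oocyte and make estradiol, taken by needle puncture from immature female Sprague Dawley rats of 21 to 27 days. The cells received FSH at 3 ng/ml, cAMP at 1 mM, or neither (basal), and each of these with HPTE at 0, 1, 5 or 10 µM for 48 h, which makes 12 groups of 3 arrays and 36 arrays in all. Every group, controls included, had first spent 24 h in medium with 5% serum and was then kept without serum but with androstenedione, which aromatase converts to estrogen. Its concentration was 0.1 µM per the series' design text (the sample descriptions give 0.1 M). HPTE is a hydroxylated metabolite of the pesticide methoxychlor and binds estrogen receptors, FSH is the pituitary hormone that drives follicle growth, and cAMP is the second messenger made when the FSH receptor is engaged. Whether replicates were separate rats or separate wells of shared cells is not in the labels, so the p-values measure only the spread between these samples, which may be technical. The cells were primary cells that were not sorted.

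In cells of the body, arginine and lysine enter through the cationic carriers SLC7A1 and SLC7A3. The light chains SLC7A5, an exchanger of large neutral amino acids, and SLC7A11, which imports cystine in exchange for glutamate, reach the membrane bound to the heavy chain SLC3A2. ASNS makes asparagine, PHGDH and PSAT1 catalyse steps of serine synthesis from a glycolytic intermediate, and SHMT2 turns serine into glycine and a one-carbon unit in mitochondria. Many of these genes are known in mouse and human cells as targets of ATF4, a transcription factor whose translation rises when amino acids are short or the endoplasmic reticulum is under stress. In mouse follicles granulosa cells take up amino acids that the oocyte carries poorly and pass them on through gap junctions.

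ATF4 binds with C/EBP proteins to a composite element whose core is TGATGNAA. This core was searched on both strands in the 250 bases before each annotated gene start in RefSeq promoters (build GRCr8), with any overlap between matches counted. It was present in 1139 of 33469 such windows (3.40%). Of the 9 genes, 8 had an entry, and 1 of these, Slc7a1, held the core, 30 bases before its start. Among 17 regulators of the ATF4 pathway, 15 had an entry and 3 held it, among them the pseudokinase gene Trib3. A match is a run of letters and not a shown binding site. A core farther before the start or after it was not searched for, so a window without a match does not show that the gene lacks one. The 3.40% is a share of windows, while the counts here are of genes, and Slc3a2 had more than 1 window. The windows below are shown because Slc7a1, Asns and Psat1 were the 3 genes of the group that were called both for HPTE and for FSH and cAMP, and Trib3 is the pathway gene with the largest rise in cAMP cells. All run 5′ to 3′ on the strand of the gene, and capitals mark the core, which in Trib3 is read on the opposite strand. They lie at chr12:11664238-11664487 (plus strand), chr4:36769416-36769665 (minus strand), chr1:222645409-222645658 (minus strand) and chr3:161275534-161275783 (minus strand).
Slc7a1: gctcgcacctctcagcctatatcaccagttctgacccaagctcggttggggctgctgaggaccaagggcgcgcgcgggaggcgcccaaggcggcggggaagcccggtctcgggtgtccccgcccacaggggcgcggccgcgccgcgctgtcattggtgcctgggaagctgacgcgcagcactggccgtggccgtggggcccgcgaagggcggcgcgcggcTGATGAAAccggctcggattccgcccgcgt
Asns: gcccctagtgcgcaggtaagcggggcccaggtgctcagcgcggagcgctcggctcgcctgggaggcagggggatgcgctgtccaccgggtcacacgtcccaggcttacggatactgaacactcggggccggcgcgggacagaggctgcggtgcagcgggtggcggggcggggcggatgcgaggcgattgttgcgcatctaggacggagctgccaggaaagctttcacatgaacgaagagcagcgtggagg
Psat1: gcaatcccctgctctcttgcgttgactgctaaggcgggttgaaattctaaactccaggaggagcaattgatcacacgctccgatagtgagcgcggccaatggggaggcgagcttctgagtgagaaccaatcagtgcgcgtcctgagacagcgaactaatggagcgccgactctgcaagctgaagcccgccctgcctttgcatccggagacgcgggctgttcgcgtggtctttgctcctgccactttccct
Trib3: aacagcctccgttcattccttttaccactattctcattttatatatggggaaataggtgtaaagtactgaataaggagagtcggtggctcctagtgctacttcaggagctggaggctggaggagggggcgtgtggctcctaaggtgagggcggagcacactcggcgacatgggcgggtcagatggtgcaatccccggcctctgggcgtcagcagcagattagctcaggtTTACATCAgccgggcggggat

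Arrays have no count depth, and 3 arrays per group limit the precision. Median intensities ran from 65.8 to 73.7 over the 36 arrays, and replicates correlated at 0.95 to 0.994. Arrays numbered 3 stood apart, with a Gapdh 3′ over 5′ control ratio of 0.77 to 1.07 (log2), against 1.61 to 2.40 in numbers 1 and 2. The arrays numbered 2 of FSH and cAMP at 0 µM went against their labels. Cyp19a1, the aromatase gene that FSH induces in these cells, read 11.49, 7.48 and 11.46 (log2 intensity, numbers 1 to 3) with FSH, 7.62, 11.01 and 6.46 with cAMP, and 5.11, 4.51 and 4.50 in basal cells. They look exchanged for each other, so results that use the 0 µM FSH or cAMP arrays are also given without both where that changes a call of one of the 9 genes or a count over a list. Of 7 granulosa markers measured, Inhba, Fst, Inha and Foxl2 had means at percentiles 99.9, 98.7, 97.1 and 96.4 of all probe sets. Amhr2, Nr5a1 and Amh were lower, at percentiles 75.7, 75.6 and 67, and Fshr of the same list was not measured. Markers of other cell types were mixed: Bmp15 (oocyte), Csf1r (macrophage) and Tie1 (endothelium) had no group mean above 5.12 (log2), while others of the same lists were well above that. Group means reached 8.58 for Zp2 and 8.07 for Zp3 of the oocyte list, 9.85 for Lyz2 and 8.28 for Cd14 of the macrophage list, 9.35 for Kdr of the endothelium list and 10.69 for Col3a1 of the theca and stroma list.

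Most of the group was higher at 10 µM HPTE in cells that had FSH or cAMP. Of the 8 genes tested, 7 rose with cAMP, 6 rose with FSH and 1 rose in basal cells, and none fell. Over all probe sets 1.2%, 4.51% and 0.416% passed as higher in these comparisons, and 0.486%, 3.95% and 0.602% as lower. The median difference of the 8 genes was 1.23 with cAMP, 1.24 with FSH and 0.76 in basal cells (log2, 10 µM minus 0 µM), beside medians over all probe sets of -0.024, -0.009 and 0.020. Unadjusted p was under 0.05 for 8, 8 and 5 of the 8 genes. The spread was shared over all 12 groups, and fits with only the 6 arrays compared called 1 of 8 with FSH (Asns), 1 with cAMP (Slc7a11) and 1 in basal cells (Slc7a11). All tests here are limma's moderated test, two-sided, with Benjamini-Hochberg adjustment over the 31042 probe sets and a threshold of 0.05, and all differences are log2 ± the standard error of the fit. Whether the arrays of compared groups overlap is given below as a description. The share of all probe sets without overlap was not computed.

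**Figure D1:**
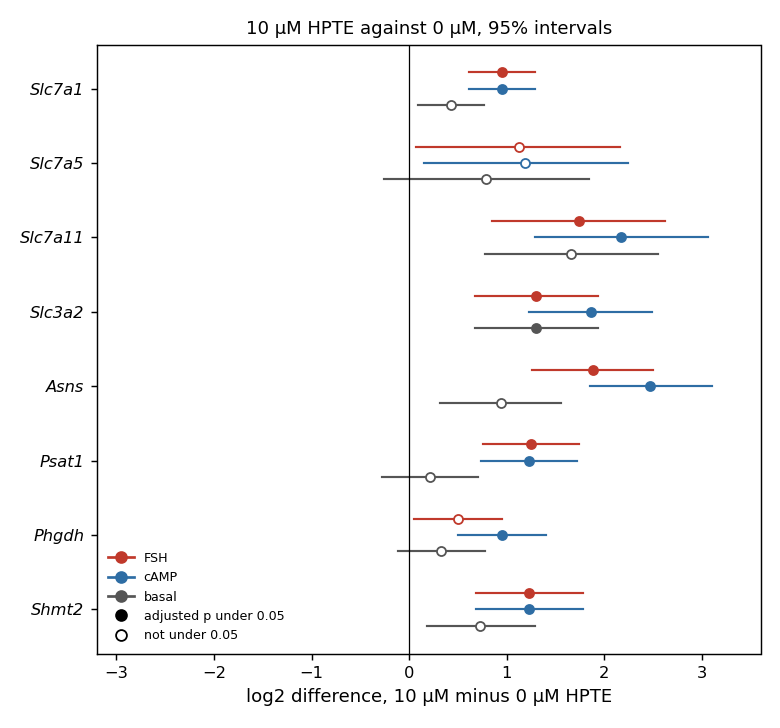
Log2 difference between 10 µM and 0 µM HPTE for the 8 tested genes, in FSH, cAMP and basal cells (points, with 95% intervals as lines; n = 3 arrays in each group). Filled points passed at an adjusted p under 0.05: 6 with FSH, 7 with cAMP and 1, Slc3a2, in basal cells.

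Slc7a3 encodes a cationic amino acid transporter. At 10 µM HPTE its probe set read 8.39, 9.54 and 9.91 (log2 intensity) in FSH cells, against 5.66, 5.58 and 5.01 in FSH cells at 0 µM. It read 8.61, 8.57 and 8.70 in cAMP cells at 10 µM, against 5.18, 5.54 and 5.14 in cAMP cells at 0 µM. In basal cells it read 9.45, 9.72 and 9.85 at 10 µM, against 7.07, 7.12 and 7.34 at 0 µM. All 9 arrays at 10 µM were above all 9 at 0 µM. The differences were 3.86 (14.6-fold) with FSH, 3.34 (10.1-fold) with cAMP and 2.50 (5.64-fold) in basal cells. Without the arrays numbered 2 of FSH and cAMP at 0 µM they were 3.95 with FSH and 3.47 with cAMP.

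Slc7a3 had its highest mean at 10 µM in each stimulus. In FSH cells the means at 0, 1, 5 and 10 µM were 5.42, 5.47, 7.53 and 9.28, in cAMP cells 5.28, 5.95, 6.47 and 8.63, and in basal cells 7.18, 6.90, 8.06 and 9.67 (log2 intensity, n = 3 each). At 5 µM the FSH arrays were spread over 6.43, 8.30 and 7.86, against 6.58, 6.62 and 6.20 with cAMP. Basal cells at 1 µM read 6.78, 6.92 and 7.01, each below every basal array at 0 µM. Ordered by mean, the highest groups were basal, FSH and cAMP at 10 µM, and the lowest were cAMP at 1 µM, FSH at 1 µM, FSH at 0 µM and cAMP at 0 µM. Neighbours in that order overlapped except that cAMP at 10 µM stood clear above basal at 5 µM, basal at 0 µM above basal at 1 µM, and basal at 1 µM above cAMP at 5 µM.

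Slc7a1 encodes the main cationic transporter of most tissues. Its brightest probe set read 11.93, 12.27 and 12.41 in FSH cells at 10 µM HPTE, against 11.62, 10.74 and 11.39 in FSH cells at 0 µM. With cAMP it read 11.96, 11.99 and 12.02 at 10 µM, against 11.10, 11.28 and 10.74 at 0 µM. The groups did not overlap, and Slc7a1 rose by 0.95 ± 0.17 with FSH (1.93-fold, adjusted p = 0.000253) and by 0.95 ± 0.17 with cAMP (1.93-fold, adjusted p = 0.00114). In basal cells it read 12.07, 12.25 and 12.41 at 10 µM, against 11.82, 11.66 and 11.96 at 0 µM. These arrays did not overlap, and the difference of 0.43 ± 0.17 did not pass (adjusted p = 0.446). The second probe set differed by 1.13 ± 0.43 with FSH (adjusted p = 0.116) and by 0.74 ± 0.43 in basal cells (adjusted p = 0.958). With cAMP the mean of the second probe set was 7.50 at 10 µM, against 6.66 at 0 µM. It thus moved in the same direction as the brightest in each stimulus. The dimmest, at percentile 4.94 of all probe sets, had group means of 4.26 to 4.59 and passed in none of the 20 comparisons. A mean over the 3 probe sets includes this flat one, which makes the differences smaller. With the mean of the 3 probe sets the difference with cAMP was 0.57 and no longer passed (adjusted p = 0.173). Nor did it pass without all arrays numbered 3 (0.78, adjusted p = 0.0789).

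**Figure D2:**
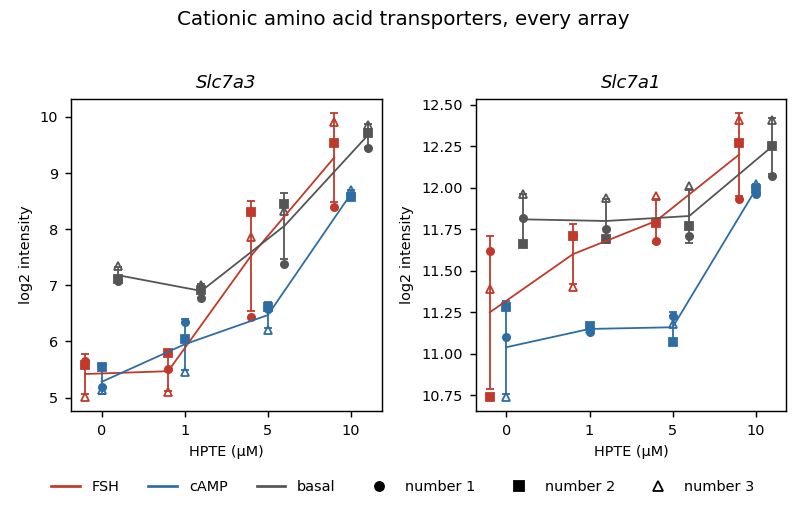
Log2 intensity of Slc7a3 and Slc7a1 on every array by HPTE dose (µM), in FSH, cAMP and basal cells. Markers are arrays (circles, squares and open triangles for numbers 1, 2 and 3), lines join the means and bars are SD (n = 3). At 10 µM every Slc7a3 array lay above every array at 0 µM.

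Slc3a2 encodes the heavy chain shared by SLC7A5 and SLC7A11. At 10 µM HPTE it read 9.37, 9.21 and 10.46 in FSH cells, against 8.45, 8.22 and 8.48 at 0 µM. With cAMP it read 9.84, 9.29 and 10.33 at 10 µM, against 8.04, 8.25 and 7.58 at 0 µM. In basal cells it read 9.68, 9.21 and 10.33 at 10 µM, against 8.24, 8.42 and 8.65 at 0 µM. The arrays of 10 and 0 µM did not overlap within any stimulus, and the arrays numbered 3 were the highest at 10 µM in all 3. Slc3a2 rose by 1.30 ± 0.31 with FSH (2.46-fold, adjusted p = 0.00524), by 1.86 ± 0.31 with cAMP (3.63-fold, adjusted p = 0.000509) and by 1.30 ± 0.31 in basal cells (2.46-fold, adjusted p = 0.0287). In basal cells the call was lost when any of 5 of the 6 arrays was left out (adjusted p 0.0606 to 0.22). With FSH it was lost without number 3 at 10 µM (0.91, adjusted p = 0.0823).

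Slc7a11 encodes the cystine importer. It read 7.88, 8.76 and 9.20 in FSH cells at 10 µM HPTE, against 7.40, 5.76 and 7.46 at 0 µM. With cAMP it read 8.27, 8.67 and 8.51 at 10 µM, against 6.08, 6.71 and 6.15 at 0 µM. In basal cells it read 8.30, 8.57 and 8.93 at 10 µM, against 6.97, 6.76 and 7.08 at 0 µM. All 9 arrays at 10 µM were above all 9 at 0 µM, and the widest spread at 0 µM was that of FSH, set by its number 2. Slc7a11 rose by 1.74 ± 0.43 with FSH (3.33-fold, adjusted p = 0.00826) and by 2.17 ± 0.43 with cAMP (4.5-fold, adjusted p = 0.0042). In basal cells the difference of 1.66 ± 0.43 (3.17-fold) missed the threshold (adjusted p = 0.0586) and passed with the replicate number as a block (adjusted p = 0.0112). Without the arrays numbered 2 of FSH and cAMP at 0 µM, the FSH difference was 1.18 ± 0.43 and no longer passed (adjusted p = 0.102), while the basal one passed (adjusted p = 0.0223). Leaving out number 3 of FSH at 10 µM also ended the FSH call (1.44, adjusted p = 0.075). Without all arrays numbered 3 neither the FSH difference (1.74, adjusted p = 0.0682) nor the cAMP one (2.08, adjusted p = 0.0818) passed.

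Slc7a5, which encodes the exchanger of leucine and other large neutral amino acids, varied most between equal-treated arrays. It read 6.92, 7.51 and 9.13 in FSH cells at 10 µM, against 6.85, 6.21 and 7.14 at 0 µM, and 7.37, 7.70 and 8.83 in cAMP cells at 10 µM, against 6.87, 6.47 and 6.96 at 0 µM. Basal cells read 7.43, 7.30 and 9.16 at 10 µM, against 7.01, 6.73 and 7.78 at 0 µM. Number 3 was the highest array in each of the 12 groups. The differences of 1.12 ± 0.51 with FSH (adjusted p = 0.246), 1.19 ± 0.51 with cAMP (adjusted p = 0.405) and 0.79 ± 0.51 in basal cells (adjusted p = 1) did not pass. With the replicate number as a block, which takes out the offset of number 3, the FSH (adjusted p = 0.00411) and cAMP (adjusted p = 0.00629) differences passed and the basal one did not (adjusted p = 0.143). All 3 same-numbered pairs were higher at 10 µM in each stimulus.

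**Figure D3:**
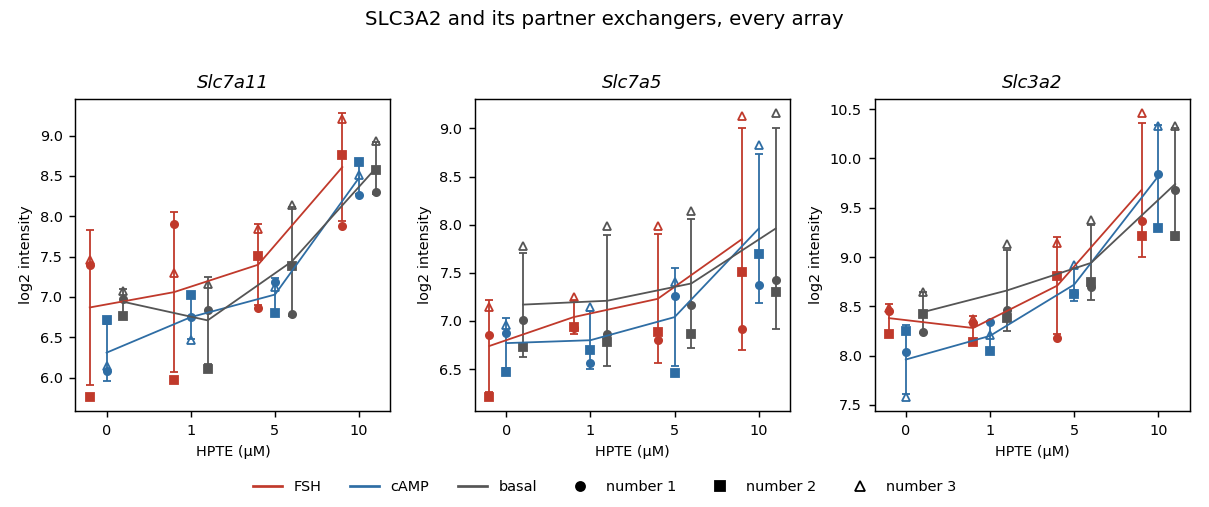
Log2 intensity of Slc7a11, Slc7a5 and Slc3a2 on every array by HPTE dose (µM), in FSH, cAMP and basal cells. Markers are arrays (circles, squares and open triangles for numbers 1, 2 and 3), lines join the means and bars are SD (n = 3). Number 3 is the highest Slc7a5 array in every group.

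Asns, the asparagine synthetase gene, had the widest range of the enzymes over the groups. It read 9.08, 9.64 and 9.96 in FSH cells at 10 µM HPTE, against 8.12, 7.35 and 7.57 at 0 µM. With cAMP it read 9.81, 9.49 and 9.52 at 10 µM, against 7.32, 7.94 and 6.13 at 0 µM. In basal cells, where the 0 µM level was already high, it read 9.70, 10.00 and 9.96 at 10 µM, against 9.18, 8.85 and 8.80 at 0 µM. Asns rose by 1.88 ± 0.30 with FSH (3.68-fold, adjusted p = 8.29e-05) and by 2.47 ± 0.30 with cAMP (5.55-fold, adjusted p = 1.19e-05). The basal difference of 0.94 ± 0.30 (1.92-fold) did not pass (adjusted p = 0.211). No array overlapped there, which is a description and not a test. In each stimulus 3 of 3 same-numbered pairs were higher at 10 µM.

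Psat1 and Phgdh belong to serine synthesis. Psat1, the aminotransferase of the pathway, read 7.66, 8.14 and 8.56 in FSH cells at 10 µM, against 7.27, 6.29 and 7.04 at 0 µM, and 7.95, 8.08 and 8.19 in cAMP cells at 10 µM, against 7.24, 7.14 and 6.15 at 0 µM. It rose by 1.25 ± 0.24 with FSH (2.38-fold, adjusted p = 0.000683) and by 1.23 ± 0.24 with cAMP (2.35-fold, adjusted p = 0.00354). Without all arrays numbered 3 the cAMP difference was 0.83 and did not pass (adjusted p = 0.156). Basal cells read 7.91, 8.11 and 8.27 at 10 µM, against 7.82, 7.73 and 8.10 at 0 µM, groups that overlapped and differed by 0.21 ± 0.24 (95% interval -0.28 to 0.70, adjusted p = 1). Phgdh, the first enzyme of the pathway, rose with cAMP (0.95 ± 0.22, 1.93-fold, adjusted p = 0.0164), with 8.01, 7.49 and 7.56 at 10 µM against 6.55, 7.03 and 6.63 at 0 µM. Its differences of 0.50 ± 0.22 with FSH (adjusted p = 0.209) and 0.33 ± 0.22 in basal cells (adjusted p = 1) did not pass, and that the stimuli differ was not shown. The Phgdh call with cAMP was lost without number 1 or number 3 at 0 µM, or without number 1 at 10 µM (adjusted p 0.0726 to 0.132).

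Shmt2, the mitochondrial serine hydroxymethyltransferase gene, read 8.11, 8.52 and 9.26 in FSH cells at 10 µM, against 7.45, 7.24 and 7.51 at 0 µM, and 8.17, 8.24 and 8.90 in cAMP cells at 10 µM, against 7.14, 7.56 and 6.92 at 0 µM. It rose by 1.23 ± 0.27 with FSH (2.35-fold, adjusted p = 0.0027) and by 1.23 ± 0.27 with cAMP (2.35-fold, adjusted p = 0.0107). Basal cells read 8.50, 8.50 and 9.15 at 10 µM, against 7.97, 7.80 and 8.18 at 0 µM. That difference of 0.73 ± 0.27 did not pass (adjusted p = 0.371) but did with the replicate number as a block (adjusted p = 0.0358). No group of 10 µM arrays overlapped its 0 µM group. The cAMP call was lost without number 1 or 3 at 0 µM or number 3 at 10 µM (adjusted p 0.0526 to 0.129).

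**Figure D4:**
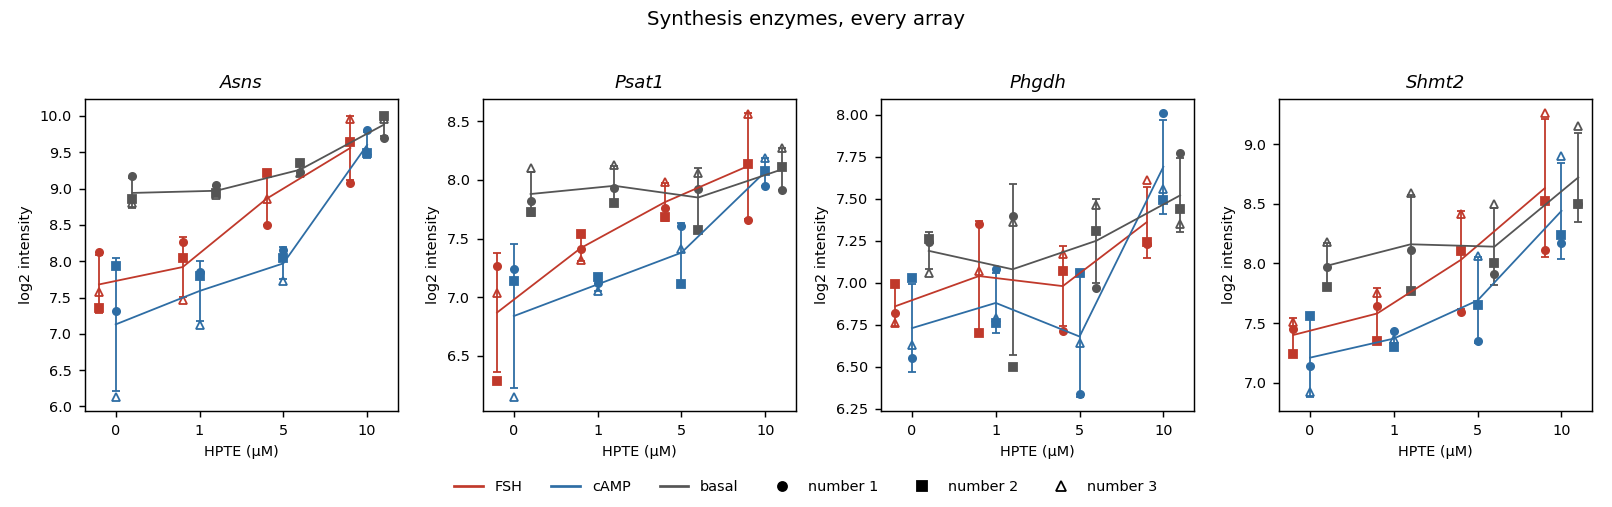
Log2 intensity of Asns, Psat1, Phgdh and Shmt2 on every array by HPTE dose (µM), in FSH, cAMP and basal cells. Markers are arrays (circles, squares and open triangles for numbers 1, 2 and 3), lines join the means and bars are SD (n = 3). For Asns and Psat1 the basal line lies above the FSH and cAMP lines at 0 µM (the 3 means span 1.81 and 1.04), and the 3 lines are close at 10 µM (0.32 and 0.05).

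With the block, the number of the 8 genes called at 10 µM in basal cells was 3 in place of 1. Over all probe sets the block called 1059 in place of 316 there. With FSH the block called 5333 in place of 2624, and with cAMP 1810 in place of 525. Other measures of the same arrays are given beside the differences. For the marker counts, 4.51% of all probe sets passed as higher and 3.95% as lower at 10 µM with FSH. With cAMP the shares were 1.2% and 0.486%, and in basal cells 0.416% and 0.602%. In FSH cells 5 of 7 granulosa markers fell at 10 µM (Nr5a1, Inha, Fst, Foxl2 and Inhba), and the summed intensity of the 7 was 13230 to 15880 at 10 µM, against 23210 to 31560 at 0 µM. None of the 7 passed with cAMP (23480 to 24880 at 10 µM, against 24250 to 29400 at 0 µM) or in basal cells (10760 to 11790 at 10 µM, against 12370 to 13190 at 0 µM). Of 8 macrophage and leukocyte markers 1, Cd14, rose with FSH, and their sum was 1155 to 3099 at 10 µM, against 445.1 to 1621 at 0 µM. None of the 8 passed with cAMP (554 to 972.9 at 10 µM, against 448.4 to 1134 at 0 µM) or in basal cells (1008 to 2518 at 10 µM, against 820.1 to 2242 at 0 µM). Of 7 theca and stroma markers 1 rose and 1 fell with FSH and with cAMP (Col3a1 higher in both, Cyp17a1 lower with FSH, Col1a1 lower with cAMP) and 1 fell in basal cells (Col1a1). Their sums at 10 µM were 2186 to 3151 with FSH, 1403 to 2322 with cAMP and 2355 to 2919 in basal cells, against 1507 to 2700, 1288 to 2871 and 2604 to 3372 at 0 µM. No marker of endothelium, oocytes or surface epithelium passed. The Gapdh 3′ to 5′ ratio was lower at 10 µM in 3 of 3 same-numbered pairs with FSH (mean log2 difference -0.17), in 2 of 3 with cAMP (-0.11) and in 3 of 3 in basal cells (-0.16). Fewer cells of a type and less RNA per cell cannot be told apart in such samples, and the part of these measures in the differences was not tested.

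At the lower doses few genes passed. With FSH at 5 µM, 3 of 8 rose (3.45% of all probe sets passed as higher): Slc7a1 by 0.55 ± 0.17 (adjusted p = 0.0439), Asns by 1.17 ± 0.30 (adjusted p = 0.0142) and Psat1 by 0.94 ± 0.24 (adjusted p = 0.0131). With the block Shmt2 also passed (0.63, adjusted p = 0.0316). Without the arrays numbered 2 of FSH and cAMP at 0 µM, Asns passed (1.01, adjusted p = 0.0343) and Slc7a1 (0.30, adjusted p = 0.362) and Psat1 (0.65, adjusted p = 0.124) did not. Each of these 3 calls was also lost without at least 1 other array. None of the 8 passed at 5 µM with cAMP (0.00322% of all probe sets as higher, unadjusted p under 0.05 for 3 of the 8) or in basal cells (0.00644%, 0 of the 8). At 1 µM none passed with FSH (0.00644%, unadjusted p under 0.05 for 2 of the 8), with cAMP (0%, 0 of the 8) or in basal cells (0%, 0 of the 8). At 1 µM the differences ran from -0.10 to 0.55 with FSH, from 0.03 to 0.46 with cAMP and from -0.23 to 0.22 in basal cells.

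Without HPTE, part of the group was lower in stimulated cells. At 0 µM, 3 of the 8 genes fell with FSH and the same 3 with cAMP, namely Slc7a1, Asns and Psat1. Over all probe sets 4.18% passed as lower and 3.88% as higher with FSH, and 4.49% as lower and 2.69% as higher with cAMP. The median of the 8 genes was -0.50 with FSH and -0.70 with cAMP, beside -0.008 and 0.039 over all probe sets. Both comparisons share the basal arrays, and the comparisons of HPTE with 0 µM share the arrays of each stimulus at 0 µM, so a high or low value there enters more than 1 of them. Granulosa markers moved as well, 5 of 7 higher with FSH and 4 of 7 with cAMP, and their summed intensity was 23210 to 31560 with FSH and 24250 to 29400 with cAMP, against 12370 to 13190 in basal cells. Of the 8 macrophage and leukocyte markers 1 fell with each stimulus, with sums of 445.1 to 1621 with FSH and 448.4 to 1134 with cAMP, against 820.1 to 2242 in basal cells. Of the 7 theca and stroma markers Col3a1 fell with FSH (-1.17) and with cAMP (-1.34) and Cyp17a1 rose with FSH (1.28), with sums of 1507 to 2700 with FSH and 1288 to 2871 with cAMP, against 2604 to 3372 in basal cells. The Gapdh 3′ to 5′ ratio was lower in 2 of 3 same-numbered pairs with each stimulus (mean log2 difference -0.09 with FSH and -0.12 with cAMP). The part of these measures was not tested.

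Asns was lowest in stimulated cells, with 8.12, 7.35 and 7.57 in FSH cells and 7.32, 7.94 and 6.13 in cAMP cells, against 9.18, 8.85 and 8.80 in basal cells at 0 µM. It fell by 1.26 ± 0.30 with FSH (to 0.417 of the basal level, adjusted p = 0.00646) and by 1.81 ± 0.30 with cAMP (to 0.285, adjusted p = 0.000139). Psat1 fell by 1.01 ± 0.24 with FSH (adjusted p = 0.00559) and by 1.04 ± 0.24 with cAMP (adjusted p = 0.00488). Slc7a1 fell by 0.56 ± 0.17 with FSH (adjusted p = 0.0329) and by 0.77 ± 0.17 with cAMP (adjusted p = 0.0026), and neither passed with the mean of its 3 probe sets (-0.32, adjusted p = 0.475, and -0.44, adjusted p = 0.229). The untested Slc7a3 differed by -1.76 with FSH and -1.89 with cAMP, and no stimulated array reached a basal one. Shmt2 differed by -0.58 ± 0.27 with FSH (adjusted p = 0.266) and -0.78 ± 0.27 with cAMP (adjusted p = 0.088) and passed with the block in both (adjusted p = 0.0456 and 0.00648). Slc7a11 and Slc3a2, which HPTE raised, differed by -0.06 ± 0.43 and -0.06 ± 0.31 with FSH and by -0.62 ± 0.43 and -0.48 ± 0.31 with cAMP, none of which passed.

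The calls for FSH depended on its number 2. Without the arrays numbered 2 of FSH and cAMP, Asns remained lower with FSH (-1.09, adjusted p = 0.0168) while Slc7a1 (-0.31, adjusted p = 0.311) and Psat1 (-0.73, adjusted p = 0.0628) no longer passed. With cAMP all 3 passed without them: Asns at -2.22 (adjusted p = 8.33e-06), Psat1 at -1.19 (adjusted p = 0.00143) and Slc7a1 at -0.90 (adjusted p = 0.000149). The Psat1 call with cAMP was lost without number 3 of cAMP (-0.69, adjusted p = 0.0742). The Slc7a1 call with FSH was lost without number 1 (adjusted p = 0.0939) or number 3 (adjusted p = 0.153) of the basal arrays. FSH set directly against cAMP at 0 µM called none of the 8 genes and 0% of all probe sets (unadjusted p under 0.05 for 0 of the 8 and for 1002 of 31042 probe sets), with differences from -0.03 to 0.56. Without both doubted arrays 680 probe sets passed there, none of the 8 among them, with Slc7a1 at 0.59 (adjusted p = 0.0543) and Asns at 1.12 (adjusted p = 0.0716).

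Fewer of the genes passed as lower in stimulated cells at the higher HPTE doses. With cAMP 3 of 8 genes were lower than in basal cells at 1 µM (Slc7a1, Asns and Psat1; 4.47% of all probe sets), 2 at 5 µM (Slc7a1 and Asns; 4.09%) and 0 at 10 µM (3.45%, unadjusted p under 0.05 for 0 of the 8). With FSH none passed at 1 µM (1.64% of all probe sets, unadjusted p under 0.05 for 3 of the 8), 5 µM (0%, 0 of the 8) or 10 µM (0%, 0 of the 8). At 1 µM Asns differed by -1.05 ± 0.30 with FSH (adjusted p = 0.0582) and passed with the block (adjusted p = 0.0152), and Shmt2 passed with the block for cAMP (-0.79, adjusted p = 0.00501). The Psat1 call with cAMP at 1 µM was lost without any of 5 of the 6 arrays (adjusted p 0.0548 to 0.104), and the Slc7a1 calls without number 3 of the basal arrays at 1 µM (adjusted p = 0.0702) or at 5 µM (adjusted p = 0.0633). At 10 µM the FSH minus basal differences ran from -0.32 to 0.03 and the cAMP minus basal ones from -0.28 to 0.17. The cAMP minus basal difference of Asns was -1.81 at 0 µM, -1.38 at 1 µM, -1.29 at 5 µM and -0.28 at 10 µM (95% interval -0.90 to 0.34). The range of the 3 stimulus means was smaller at 10 µM than at 0 µM for each of the 8 tested genes. It was 0.32 at 10 µM against 1.81 at 0 µM for Asns, 0.05 against 1.04 for Psat1 and 0.26 against 0.77 for Slc7a1. For the untested Slc7a3 it was 1.05 against 1.89. The share of all probe sets with a smaller range was not computed. Over all probe sets FSH against basal called 2502 at 0 µM and 0 at 10 µM, and cAMP against basal called 2228 and 1918.

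**Figure D5:**
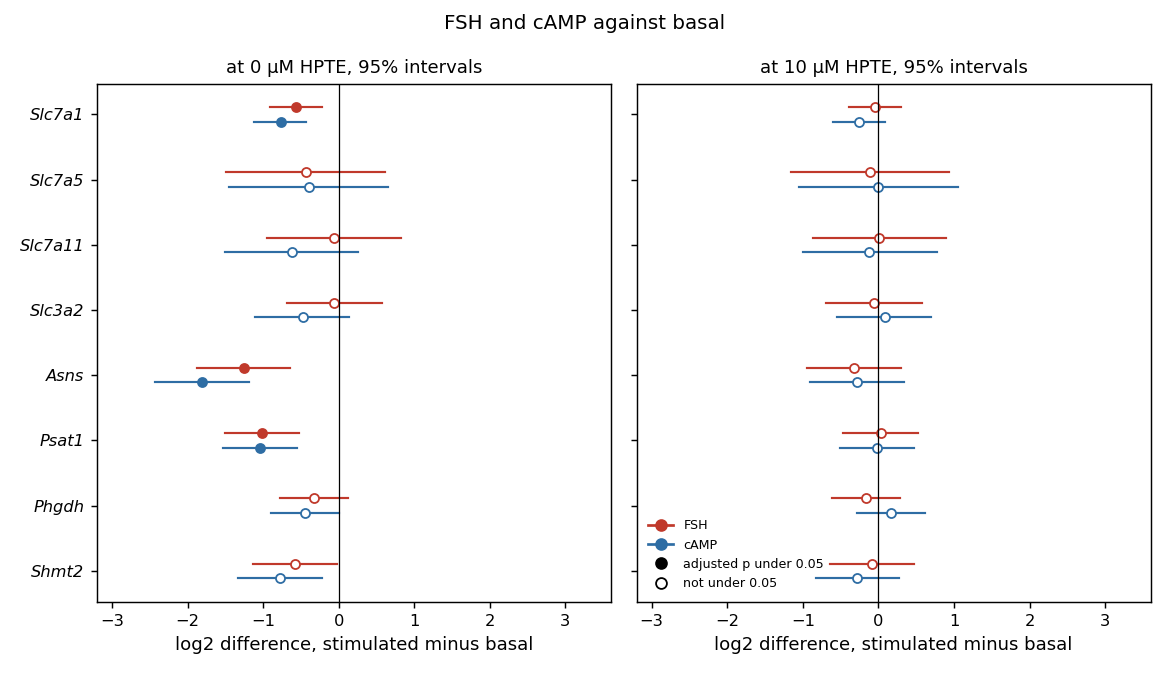
Log2 difference of FSH and cAMP cells from basal cells at 0 µM (left) and at 10 µM HPTE (right) for the 8 tested genes (points, with 95% intervals as lines; n = 3 arrays in each group). Filled points passed at an adjusted p under 0.05: 3 for FSH and 3 for cAMP at 0 µM, and 0 at 10 µM.

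Whether the effect of 10 µM HPTE itself differed between stimuli was tested as an interaction. None of the 8 genes passed for FSH against basal (2.17% of all probe sets in either direction) or for cAMP against basal (0.129%), with unadjusted p under 0.05 for 3 genes in each. The effect of HPTE on Asns was 1.53 ± 0.43 larger in cAMP cells than in basal ones (adjusted p = 0.384) and 0.94 ± 0.43 larger with FSH (adjusted p = 0.44). That on Psat1 was 1.04 ± 0.34 larger with FSH (adjusted p = 0.132) and 1.02 ± 0.34 larger with cAMP (adjusted p = 0.739). Without the doubted arrays the Asns interaction with cAMP was 1.94 and passed (adjusted p = 0.0281). For Slc3a2 and Slc7a11 the estimates with FSH were -0.00 ± 0.43 (95% interval -0.89 to 0.88) and 0.07 ± 0.61 (-1.18 to 1.33), intervals that leave room for a difference of either sign.

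Over the 12 group means the 9 genes correlated with one another at 0.739 (Slc7a11 with Psat1) to 0.982 (Asns with Shmt2). These are descriptions over 12 points that share arrays and treatments. Among 2048 genes with a range of at least 1 log2 unit over the group means, those closest to Slc7a3 by Pearson correlation were Casp4 (0.989), Angptl4 (0.987), Wars1 (0.975), C7h12orf75 (0.972) and Sec61a1 (0.972). Casp4 encodes an inflammatory caspase, Wars1 the cytosolic tryptophanyl-tRNA synthetase and Sec61a1 the channel of protein import into the endoplasmic reticulum. Closest to Asns were Fkbp11 (0.991), Ank2 (0.986), Shmt2 (0.982), Aldh1l2 (0.978) and Nars1 (0.976), of which Nars1 encodes asparaginyl-tRNA synthetase and Aldh1l2 a mitochondrial folate enzyme. Closest to Slc7a11 were Mfsd11 (0.98), the metal transporter gene Slc39a8 (0.973), Slc3a2 (0.963), Syngr1 (0.962) and the stress transcription factor gene Ddit3 (0.959).

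Other genes of these pathways were counted from whole lists. At 10 µM HPTE 4.51% of all probe sets passed as higher and 3.95% as lower with FSH. With cAMP the shares were 1.2% and 0.486%, and in basal cells 0.416% and 0.602%. A count near these shares, in this list or those below, is not particular to its genes. Of 29 other amino acid transporters measured, 4 rose and 2 fell with FSH at 10 µM HPTE, 2 rose with cAMP and 3 rose in basal cells, and their medians were 0.05, 0.02 and 0.11. With the replicate block 6 rose and 4 fell with FSH, 3 rose with cAMP and 3 in basal cells, and without the doubted arrays 4 rose and 3 fell with FSH. The block also raised the calls over all probe sets, to 5333 with FSH, 1810 with cAMP and 1059 in basal cells. A higher blocked count in this list or those below is therefore not particular to its genes. The glycine transporter gene Slc6a9 rose in all 3 (1.69 ± 0.20 with FSH, 1.63 ± 0.20 with cAMP, 1.08 ± 0.20 in basal cells). With the mean of its probe sets the Slc6a9 differences were 0.92 with FSH and 0.76 with cAMP and still passed, and the basal call was lost without all arrays numbered 3 (adjusted p = 0.0528). The neutral amino acid transporter gene Slc1a4 rose by 1.49 ± 0.21 with FSH and by 1.47 ± 0.21 with cAMP. Slc38a4, a system A transporter gene, rose by 1.99 ± 0.22 with FSH and by 1.09 ± 0.22 in basal cells, the basal call being lost without number 3 at 0 µM (adjusted p = 0.0729) or number 1 at 10 µM (adjusted p = 0.104). Slc38a1 of the same family was called in basal cells (0.75 ± 0.14) but not with the mean of its probe sets (0.37, adjusted p = 0.172) or without all arrays numbered 3 (adjusted p = 0.127).

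Of 24 other amino acid and one-carbon enzymes, 4 rose and 2 fell with FSH, 4 rose with cAMP and none passed in basal cells (medians 0.29, 0.20 and 0.14). With the block 8 rose and 5 fell with FSH, 5 rose with cAMP, and 2 rose and 1 fell in basal cells. Without the doubted arrays 5 rose and 1 fell with FSH, 4 rose with cAMP and 1 rose in basal cells. Aldh1l2 rose by 2.40 ± 0.27 with FSH and by 2.56 ± 0.27 with cAMP. Psph, which completes serine synthesis after PSAT1, rose by 1.12 ± 0.22 with FSH and by 1.08 ± 0.22 with cAMP, and the cAMP call was lost without number 3 at 10 µM (adjusted p = 0.0525). Gpt2, a mitochondrial alanine aminotransferase gene, rose with cAMP by 1.56 ± 0.15, or by 0.87 with the mean of its probe sets. Ass1, which encodes argininosuccinate synthase of arginine synthesis, was called lower with FSH (-1.71 ± 0.51, adjusted p = 0.0319), a call lost without number 3 at 0 µM (-1.15, adjusted p = 0.276) or without number 1 or 2 at 10 µM (adjusted p = 0.0878 and 0.136).

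Of 17 regulators of the ATF4 pathway, 8 rose with FSH, 7 with cAMP and 3 in basal cells, and none fell, with medians of 0.58, 0.62 and 0.46. With the block 10 rose and 2 fell with FSH, 8 rose with cAMP and 5 rose in basal cells, and without the doubted arrays 8 rose and 1 fell with FSH, 6 rose with cAMP and 3 rose in basal cells. Nupr1, a stress-induced chromatin protein gene, rose by 2.98 ± 0.37 with FSH and by 1.95 ± 0.37 with cAMP, and Vldlr, a lipoprotein receptor gene, rose by 1.78 ± 0.18 with FSH. Trib3, an inhibitor of ATF4 signalling that ATF4 itself induces, rose by 2.80 ± 0.36 with FSH, by 3.34 ± 0.36 with cAMP and by 2.34 ± 0.36 in basal cells. With the mean of its probe sets Trib3 rose by 2.12 with FSH and by 2.41 with cAMP. Atf5 rose by 2.05 ± 0.33 with FSH and by 2.89 ± 0.33 with cAMP. Ddit3, which encodes CHOP, rose by 2.01 ± 0.49 with FSH and by 2.13 ± 0.49 with cAMP, and these calls were lost without number 1 at 0 µM (adjusted p = 0.0603 and 0.114) or number 3 at 10 µM (adjusted p = 0.0816 and 0.14). Chac1, a glutathione-degrading enzyme gene, rose by 2.31 ± 0.29 with cAMP. Its basal call (1.17 ± 0.29, adjusted p = 0.0397) was lost when any 1 of the 6 arrays was left out (adjusted p 0.088 to 0.227) and with quantile normalization (adjusted p = 0.0824).

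Among 11 Nrf2 targets, which include genes induced together with Slc7a11 by oxidative stress, 3 rose with cAMP, 1 fell with FSH and none passed in basal cells. Nqo1 rose by 2.30 ± 0.37 with cAMP. Srxn1 rose by 2.14 ± 0.33 with cAMP, or by 0.78 with the mean of its probe sets, and Hmox1 by 1.70 ± 0.35, a call lost without number 3 of cAMP at 0 µM (adjusted p = 0.0596). Without all arrays numbered 3 neither Srxn1 (1.81, adjusted p = 0.0635) nor Hmox1 (1.45, adjusted p = 0.186) passed with cAMP. Me1 fell by 1.21 ± 0.16 with FSH. With the block 4 rose and 2 fell with FSH, 5 rose with cAMP and 2 rose in basal cells. Without the doubted arrays 2 fell with FSH, 4 rose with cAMP and 2 rose in basal cells. With only the compared arrays in the fit, Slc38a4 and Slc38a1 in basal cells, Psph and Ddit3 with FSH and with cAMP, Ass1 with FSH, Chac1 in basal and cAMP cells, and Slc1a4, Nupr1 and Hmox1 with cAMP no longer passed.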

How the data were processed

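Transcript levels were measured on 36 Affymetrix rat expression arrays, 12 groups of 3. The deposited intensities are linear values that the authors made with RMA, per the submitters' processing notes, and per the labels' protocols 40 ng of RNA per array was amplified with a NuGEN kit. RMA compresses differences of dim probe sets, and amplification primed near the 3′ end makes probe sets sensitive to RNA length.

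Here log2 was taken of each value with no further scaling. Of 31099 probe sets 57 controls were set aside, which left 31042, of which 20826 carried 1 gene symbol, 436 several and 9780 none. For 20758 of them the gene ID was found and its current name was used, whether or not it differed from the platform's. A gene's probe set was the one with the highest mean. Limma 3.58.1 (R 4.3.3) was fitted to the 12 group means with 24 residual degrees of freedom, and p-values were adjusted (Benjamini-Hochberg) over all 31042 probe sets within each of 20 comparisons, at a threshold of 0.05. On simulated data for the basal 10 µM comparison (31042 probe sets) 74% of changes of 1 log2 unit and 94% of changes of 2 log2 units were recovered, with 11 false calls. The simulated arrays were drawn independently, without the shared deviations of same-numbered arrays or the doubted arrays. These rates therefore check the code and need not hold for the real arrays.

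The genes and gene lists were chosen with earlier results of these data known. Genes named were the members, called genes from among the 5 largest differences of each list and comparison, and the 5 genes closest in pattern to each of 3 members. Same-numbered arrays deviated together: every correlation of their deviations from the group means was above 0.1 in 17 of 18 pairs of groups (range -0.124 to 0.889), the exception being FSH against cAMP at 0 µM, so blocked values stand beside the calls of the members and the counts over lists that they change. The alternatives were the replicate block, quantile normalization, a filter on dim probe sets, fits of the compared arrays alone, a variance trend, array weights, the mean of a gene's probe sets, and leaving out the doubted arrays, all arrays numbered 3, or each array in turn. The doubted arrays left out together with the block was added after seeing the data.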

Additional observations from a re-analysis of the deposited data

Results flagged for a closer look

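None of the 8 tested genes passed the test of a difference between stimuli with all arrays equally weighted, although Asns passed for cAMP without the doubted arrays (1.94, adjusted p = 0.0281) and Asns and Phgdh passed for cAMP with array weights. From the neighbouring lists 5 genes passed, in the test of the effect of 10 µM HPTE in FSH cells minus that in basal cells (limma, adjusted over all probe sets). These differences share the 0 µM arrays with the comparisons above. Vldlr, a lipoprotein receptor gene induced through ATF4, differed by 2.02 ± 0.25 (adjusted p = 4.3e-05) and the stress gene Nupr1 by 2.64 ± 0.52 (adjusted p = 0.00439), and both passed under every alternative run. Slc1a4 differed by 1.36 ± 0.29 (adjusted p = 0.00949) and missed the threshold without all arrays numbered 3 (1.21, adjusted p = 0.1). Aldh1l2 differed by 1.52 ± 0.38 (adjusted p = 0.0284) and Me1, which encodes malic enzyme, by -0.93 ± 0.23 (adjusted p = 0.023). With only the compared arrays in the fit neither passed (adjusted p = 0.0858 for Aldh1l2 and 0.0963 for Me1), nor without all arrays numbered 3 (adjusted p = 0.0802 and 0.154). Leaving out 1 of several single arrays also ended both calls, at adjusted p 0.0688 to 0.105 for Aldh1l2 and 0.0594 to 0.0823 for Me1.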

How the results depend on the processing

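Over 160 differences of the 8 tested genes, no alternative turned the direction of a called one, and the variance trend kept all 160 on their side of the threshold. The replicate block added 9 calls and ended 0. The block also called more over all probe sets, with 1059 in place of 316 for 10 µM in basal cells. It gave 3 called genes in place of 1 for 10 µM in basal cells and 1 in place of 0 for FSH against basal at 1 µM, and it changed no other count of called genes by over 1.5 times. For 10 µM in basal cells quantile normalization, the filter on dim probe sets and leaving out the doubted arrays each called 2, array weights 5, and the doubted arrays left out with the block 4. With only the arrays compared, 5 µM with FSH called 0 in place of 3, 10 µM with FSH 1 in place of 6, 10 µM with cAMP 1 in place of 7, FSH against basal at 0 µM 1 in place of 3 and cAMP against basal at 0 µM 0 in place of 3. These fits hold fewer samples. Without the doubted arrays 5 µM with FSH and FSH against basal at 0 µM each called 1 in place of 3, and FSH against basal at 1 µM and the cAMP interaction each called 1 in place of 0. With the block added, 5 µM with cAMP, FSH against basal at 1 µM, FSH against cAMP and the cAMP interaction each called 2 in place of 0, and cAMP against basal at 0 µM called 5 in place of 3. Array weights called 6 for cAMP against basal at 0 µM, 1 for FSH against basal at 1 µM and 2 for the cAMP interaction, and the filter on dim probe sets 1 for FSH against basal at 1 µM. Without all arrays numbered 3, 10 µM with cAMP called 3, with Slc7a1, Slc7a11, Psat1 and Phgdh lost, and Slc7a11 at 10 µM with FSH was lost too. In the same fit cAMP against basal called 1 at 0, 1 and 5 µM. The mean of a gene's probe sets called 1 for cAMP against basal at 5 µM. Where no number of samples shows it, the cause was not tested.

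Leaving out single arrays gave 0 to 1 called genes for 10 µM in basal cells, 0 to 3 for 5 µM and 4 to 6 for 10 µM with FSH, and 5 to 7 for 10 µM with cAMP. It gave 1 to 3 for FSH against basal at 0 µM, 2 to 4, 1 to 4 and 1 to 2 for cAMP against basal at 0, 1 and 5 µM, 0 to 1 for the cAMP interaction, and 0 to 0 elsewhere. No single array ended the calls at 10 µM of Asns, Slc7a1, Psat1 and Shmt2 with FSH or of Asns, Slc7a1, Slc7a11, Slc3a2 and Psat1 with cAMP. Of 1264 alternative values for 78 called differences of list genes, 1089 stayed past the threshold, 175 missed it and 0 reversed. Without background intensities in the deposited table, which dim probe sets lie above background was not analysed here.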

Other observations

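At 0 µM HPTE several neighbours of the 9 genes also differed between stimulated and basal cells. Over all probe sets 3.88% passed as higher and 4.18% as lower with FSH, and 2.69% and 4.49% with cAMP. A count near these shares, here or in the next paragraph, is not particular to its list. Of 29 other amino acid transporters 2 rose and 3 fell with FSH and 4 fell with cAMP, among them Slc1a4 (-1.39 with FSH and -1.76 with cAMP) and Slc38a4 (-1.09 and -0.97). With the replicate block 2 rose and 4 fell with FSH and 1 rose and 5 fell with cAMP, and without the doubted arrays 3 rose and 3 fell with FSH and 1 rose and 3 fell with cAMP. Over all probe sets the block called 4984 in place of 2502 with FSH and 4709 in place of 2228 with cAMP. Of 24 other enzymes 1 rose and 3 fell with FSH and 4 fell with cAMP, with Aldh1l2 the farthest down in both (-1.82 and -1.78). With the block 3 rose and 5 fell with FSH and 1 rose and 5 fell with cAMP, and without the doubted arrays 1 rose and 3 fell with FSH and 1 rose and 4 fell with cAMP.

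Of 17 ATF4 pathway regulators 1 rose and 3 fell with FSH and 4 fell with cAMP, led by Nupr1 (-2.66 and -2.58) and Vldlr (-2.08 and -2.21). With the block 1 rose and 5 fell with FSH and 1 rose and 7 fell with cAMP, and without the doubted arrays 1 rose and 2 fell with FSH and 4 fell with cAMP. The one called higher with FSH was Ddit4, an inhibitor of mTORC1 (3.21 ± 0.84, adjusted p = 0.013), at 4.43 without the doubted arrays (adjusted p = 0.000348) and at 2.48 without number 3 of FSH (adjusted p = 0.129). It also missed the threshold without number 1 of FSH or number 1 or 2 of the basal arrays (adjusted p 0.0596 to 0.0853). Of 11 Nrf2 targets 2 rose with FSH, and 1 rose and 1 fell with cAMP. With the block 3 rose and 1 fell with FSH and 1 rose and 1 fell with cAMP, and without the doubted arrays 3 rose with FSH and 1 rose and 2 fell with cAMP.

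At 10 µM HPTE, cAMP cells still had less Vldlr than basal cells (-1.69 ± 0.18, adjusted p = 2.3e-07) and less Slc38a4 (-2.01). Ddit4, of the same list as Vldlr, was higher (3.01 ± 0.84, adjusted p = 0.0265), a call lost without all arrays numbered 3 (adjusted p = 0.057). The mitochondrial alanine aminotransferase gene Gpt2 was higher (0.82 ± 0.15, adjusted p = 0.000557). Gldc (-0.95) and Glud1 (-0.78) of the same enzyme list were lower, but not with the mean of their probe sets (adjusted p = 0.0874 and 0.0585). None of the 8 tested genes passed in that comparison.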
